A study of Mus musculus with 6 samples.

Results

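The imprinted growth genes are 10 genes that were chosen by name: H19, Dlk1, Meg3, Mest, Peg3, Plagl1, Cdkn1c, Grb10, Ndn and Zim1. All 10 were found among the 37074 gene names on the arrays, and all 26 of their probes, of 56605 probes in all, were read. RNA came from osteoclasts grown from bone marrow cells of 3 Ano1fl/fl mice and of 3 littermates of the genotype Ctsk-Cre;Ano1fl/fl. Both groups carried floxed alleles of Ano1, which encodes a calcium-activated chloride channel, and the second group also carried Cre recombinase driven by the cathepsin K gene, which is switched on as osteoclasts mature, so that other marrow cells are not its intended target. All cultures received RANKL, the cytokine that drives osteoclast formation, for 5 days. The methods describe their osteoclast cultures with RANKL at 50 ng/ml and the survival factor M-CSF at 30 ng/ml, and with marrow from mice of 6 to 8 weeks. The study used the arrays to look for genes and pathways that differ when Ano1 is deleted in osteoclasts.

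An imprinted gene is read mainly from the copy inherited from 1 parent, because DNA methylation laid down in the egg or the sperm marks the copies differently. Many imprinted genes are active in the embryo and placenta, decline after birth, and control growth, with paternally expressed genes often promoting it and maternally expressed genes often restraining it. Dlk1, Mest, Peg3, Plagl1 and Ndn are known as paternally expressed genes in the mouse, and H19, Meg3, Cdkn1c, Zim1 and, outside neurons, Grb10 as maternally expressed genes. The probes read both parental copies together, so the arrays carry no information on which copy was active.

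Each array held 59305 transcript spots, of which 33480 to 34951 were well above background by the scanner software's mark, and 0 were saturated. A single slide and scan held all 6 arrays. Across the genes tested, pairs of arrays of the same group had a Pearson's r of 0.995 to 0.997 and pairs from different groups 0.947 to 0.951, as a description, since genes are not independent replicates. The probe for Ano1 itself (A_55_P2038747, mm9 chr7:151774604-151774663) stayed below background on all 6, with signals of 1.78, 1.76 and 1.78 on the Ano1fl/fl arrays against 1.70, 1.73 and 2.04 on the Ctsk-Cre;Ano1fl/fl arrays, and where the floxed part lies is not given in the sources used here. Ano1 therefore could not check the labels, and every direction below rests on them. By quantitative PCR the study gives Nfatc1, Acp5, Ctsk and Mmp9 as lower in Ctsk-Cre;Ano1fl/fl osteoclasts. On these arrays the brightest probes of the same genes were higher with that label, the opposite direction, while a second probe of Nfatc1 was called lower. Exchanged labels would turn every direction below. All signals are log2 values of the scanner's processed signal after quantile normalisation between the 6 arrays. On this scale the lowest value on each array was 1.68, and the lowest signal marked well above background lay between 3.70 and 4.22, so a value near 1.7 marks a spot at the floor of the measurement.

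A gene was tested if every array of either group read its brightest probe well above background, which 6 of the 10 genes met, among 20645 genes in all. Dlk1, Ndn, Grb10 and Plagl1 were higher on the Ctsk-Cre;Ano1fl/fl arrays, Mest was lower, and Cdkn1c did not pass the test at an adjusted p under 0.05. All 4 rises and the 1 fall exceeded 2-fold. Among all genes tested, 23.4% were higher, 29% were lower, 9.88% were higher by over 2-fold and 7.19% were lower by over 2-fold. The median log2 difference of the 6 genes was 2.78, beside -0.06 for all genes tested, and 2.74 with the genes below background in a group set at their bounds. It was 1.41 with normexp background correction, 1.91 with the series matrix, 1.84 with all 10 genes in the test and 1.31 for genes well above background on all 6 arrays. These counts describe the genes and support no statement about them as a group, because Dlk1, Ndn and Grb10 entered the test only through the arrays on which they were high, and Mest only through those on which it was high. Plagl1 and Cdkn1c were well above background on all 6 arrays. H19, Meg3, Peg3 and Zim1 were not tested. With 3 arrays in each group, an exact permutation test of a single value cannot give a two-sided p below 0.1, so the p-values given are those of the limma fit across all genes.

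**Figure D1:**
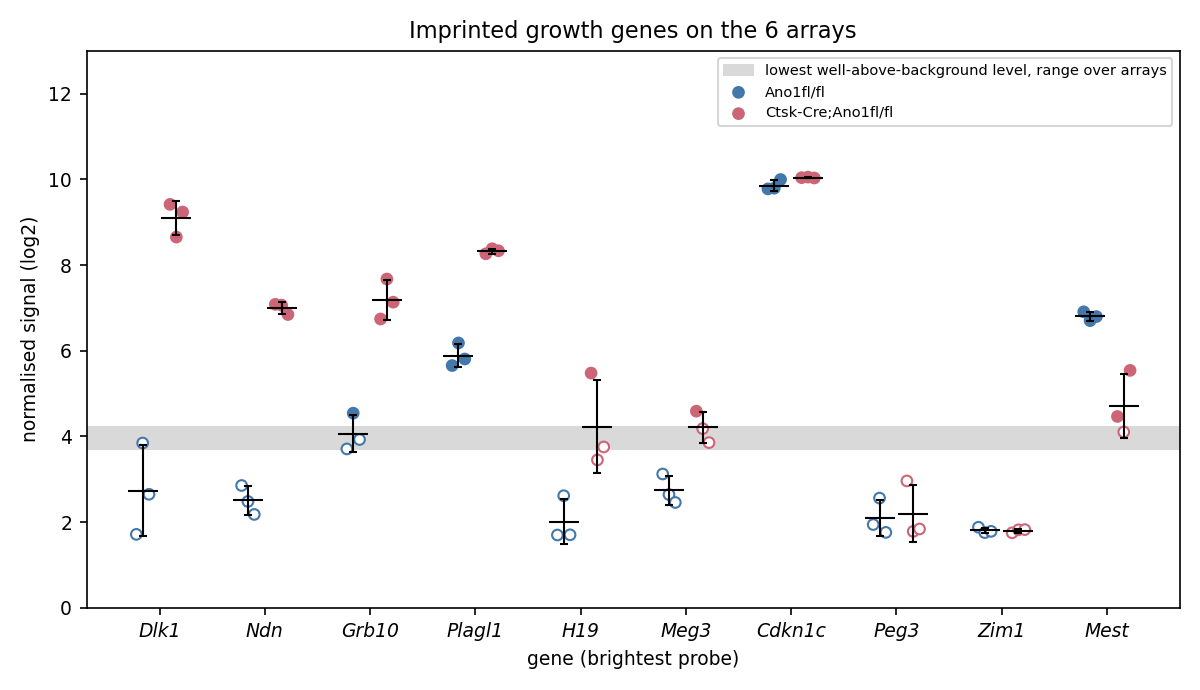
Normalised signal (log2, vertical axis) of the brightest probe of each imprinted growth gene (horizontal axis) on the 3 Ano1fl/fl arrays (blue) and the 3 Ctsk-Cre;Ano1fl/fl arrays (red), with group means and SD in black. Filled points were well above background on that array and open points were not, and the grey band spans 3.70 to 4.22, the lowest well-above-background signals of the 6 arrays. Dlk1, Ndn, Grb10 and Plagl1 sit higher in red and Mest sits lower.

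Dlk1 encodes a transmembrane protein with EGF-like repeats, related to the Notch ligands, that is known for holding preadipocytes and other precursors in an undifferentiated state. Its brightest probe (A_66_P117477, mm9 chr12:110698721-110698781) gave 1.71, 3.85 and 2.65 on the Ano1fl/fl arrays against 9.42, 8.65 and 9.24 on the Ctsk-Cre;Ano1fl/fl arrays. The groups did not overlap, which held for all 6 tested members and for 64% of all genes tested. None of the Ano1fl/fl arrays read it well above background, so its rise is given as a bound, at least 34.97-fold. The measured log2 means were 2.74 ± 1.07 and 9.10 ± 0.40 (SD, n = 3 each), and limma gave an adjusted p of 2.49e-04. A second probe 293 bases away (A_52_P177324, mm9 chr12:110698428-110698487), gave 3.21, 2.03 and 1.74 against 6.55, 5.43 and 6.14. It was at least 4.21-fold higher, with an adjusted p of 8.87e-04 in a second limma fit over the 31848 probes tested, where 21.8% of probes were higher and 30.6% lower. The sequence of this second probe is shown because it is the stretch of Dlk1 on which the rise was seen again:
Dlk1 A_52_P177324: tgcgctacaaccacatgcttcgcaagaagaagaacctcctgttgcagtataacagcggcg

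Meg3 is a long noncoding RNA made from the maternal copy of the cluster that also holds Dlk1, which is read from the paternal copy. None of its 5 probes met the condition for testing. The brightest (A_51_P455997, mm9 chr12:110809678-110809737) gave 3.12, 2.64 and 2.46 on the Ano1fl/fl arrays against 4.59, 4.18 and 3.86 on the Ctsk-Cre;Ano1fl/fl arrays, of which 1 was well above background. Another probe (A_55_P2736854, mm9 chr12:110783470-110783529) gave 1.68, 1.72 and 1.71 against 4.45, 4.43 and 3.34, with 2 arrays well above background. On both probes the groups stood apart, and the bounds were close to 1, at least 1.18-fold and at least 1.08-fold. The probes A_65_P01584 and A_55_P2736010 stayed between 1.70 and 2.22 on all 6 arrays and were below background throughout. Their group means differed by -0.20 and -0.03 on the log2 scale. The probes thus disagreed, and these dark ones lie between the brighter ones along the locus. The sequences of the 2 brighter probes are shown because they are the stretches of Meg3 that gave signal above background on some arrays. In a RefSeq window upstream of a Meg3 transcript the 60 bases of A_55_P2736854 stand directly before a run of A bases, whose part in its signal was not tested:
Meg3 A_51_P455997: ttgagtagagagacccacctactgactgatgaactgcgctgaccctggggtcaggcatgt
Meg3 A_55_P2736854: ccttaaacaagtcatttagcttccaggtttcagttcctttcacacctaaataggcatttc

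H19 is the maternally expressed noncoding RNA that shares its enhancers with Igf2 and is the precursor of miR-675. Its brighter probe (A_55_P2903297, mm9 chr7:149761492-149761551) read 1.70, 2.62 and 1.70 on the Ano1fl/fl arrays. On the Ctsk-Cre;Ano1fl/fl arrays it read 5.48, 3.45 and 3.75, and the first of these was the sole array on which it was well above background. The groups did not overlap, but with a single array above background the gene was not tested and no rise is called. The bound was at least 1.20-fold, and the SD of the Ctsk-Cre;Ano1fl/fl arrays was 1.09 (n = 3). The other probe (A_30_P01026972, mm9 chr7:149762173-149762232), 681 bases away, was below background on all 6 arrays, at 2.75, 1.72 and 1.72 against 1.70, 1.73 and 1.73. Both probe sequences are shown because they give different pictures of the same noncoding RNA:
H19 A_55_P2903297: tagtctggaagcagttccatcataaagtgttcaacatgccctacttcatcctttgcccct
H19 A_30_P01026972: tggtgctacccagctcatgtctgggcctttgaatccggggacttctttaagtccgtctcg

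Grb10 encodes an adaptor that binds the activated insulin and IGF1 receptors and damps their signal. Its brightest probe (A_55_P1955457, mm9 chr11:11833165-11833224) gave 3.71, 4.54 and 3.93 on the Ano1fl/fl arrays, where 1 of 3 arrays was well above background, and 6.74, 7.67 and 7.13 on the Ctsk-Cre;Ano1fl/fl arrays. Every Ctsk-Cre;Ano1fl/fl array was thus above every Ano1fl/fl array. The measured log2 difference was 3.12 ± 0.30 (SE), 8.71-fold, with an adjusted p of 4.31e-04. Its size rests in part on Ano1fl/fl signals below background, and it was 1.38 with normexp. A probe at base 320 of the transcript (A_52_P40363, mm9 chr11:11870574-11870633), 37409 bases away in the genome, gave 1.72, 2.20 and 1.71 against 4.94, 5.68 and 5.51. It was below background on every Ano1fl/fl array and was at least 2.66-fold higher on the others, with an adjusted p of 9.00e-05 over all probes. The remaining probe (A_55_P2717329, mm9 chr11:11849744-11849803) was not tested, at 3.33, 3.30 and 2.70 against 3.67, 4.34 and 4.26, with 2 of the 6 arrays well above background. All 3 probes were higher on the Ctsk-Cre;Ano1fl/fl arrays by their means. That probe is printed because it repeats the rise far from the brightest one, at base 2366:
Grb10 A_52_P40363: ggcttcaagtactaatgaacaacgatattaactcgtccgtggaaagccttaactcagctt

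Plagl1, also known as Zac1, encodes a zinc finger transcription factor that restrains cell division and acts on other imprinted genes. Its brightest probe (A_55_P1961968, mm9 chr10:12850832-12850891) was well above background on all 6 arrays and gave 5.65, 6.18 and 5.81 on the Ano1fl/fl arrays against 8.26, 8.38 and 8.33 on the Ctsk-Cre;Ano1fl/fl arrays. The log2 difference of 2.44 ± 0.14 (SE), 5.44-fold, had an adjusted p of 6.89e-05. A second probe (A_55_P1961965, mm9 chr10:12848421-12848480), 2411 bases away, gave 5.00, 5.37 and 5.08 against 5.74, 5.95 and 5.71. Its log2 difference was 0.65 ± 0.13 (SE), 1.57-fold, with an adjusted p of 5.94e-03 over all probes. Both probes rose, by different amounts, and the difference between them was not tested. The third probe (A_66_P105328, mm9 chr10:12780390-12780449), which represents another transcript 70442 bases away, was well above background on 1 Ano1fl/fl array and no other, at 4.28, 3.71 and 2.02 against 3.45, 3.62 and 3.30. The probe with the smaller rise is shown with its 4 copies of the hexamer CCACAG in capitals, a repeat inside the measured sequence whose part in the smaller difference was not tested:
Plagl1 A_55_P1961965: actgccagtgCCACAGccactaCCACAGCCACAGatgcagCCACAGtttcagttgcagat

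Ndn encodes necdin, a protein of the MAGE family that binds E2F1 and p53 and promotes exit from the cell cycle. It has 1 probe (A_55_P2912429, mm9 chr7:69494749-69494808). The probe gave 2.85, 2.48 and 2.18 on the Ano1fl/fl arrays, none of them well above background, and 7.08, 7.06 and 6.84 on the Ctsk-Cre;Ano1fl/fl arrays. The rise was at least 8.16-fold, with measured log2 means of 2.51 ± 0.34 and 6.997 ± 0.13 (SD, n = 3 each) and an adjusted p of 2.05e-05.

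Cdkn1c encodes p57, an inhibitor of cyclin-dependent kinases that stops cells from entering S phase. Its probe (A_55_P2733752, mm9 chr7:150644297-150644356) gave 9.78, 9.79 and 9.995 on the Ano1fl/fl arrays against 10.04, 10.05 and 10.03 on the Ctsk-Cre;Ano1fl/fl arrays. The groups did not overlap, but the difference was small, 0.19 ± 0.08 (SE) on the log2 scale, and it did not pass the test (adjusted p = 0.103). Without the third Ano1fl/fl array, which lay closest to the other group, the log2 difference was 0.26 and the adjusted p was 0.0411.

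Mest encodes a membrane protein of the alpha/beta-hydrolase fold and is known for its expression in mesodermal tissues of the embryo and in growing fat. Its brightest probe (A_55_P2090025, mm9 chr6:30697385-30697444) gave 6.91, 6.70 and 6.80 on the Ano1fl/fl arrays against 4.47, 4.10 and 5.54 on the Ctsk-Cre;Ano1fl/fl arrays, of which 2 were well above background. It was the tested member that fell, by 2.10 on the log2 scale with an SE of 0.36, 4.28-fold, and an adjusted p of 3.76e-03. A probe further upstream (A_55_P2151868, mm9 chr6:30692160-30692219) was well above background on 1 Ano1fl/fl array alone, and gave 1.73, 3.88 and 3.45 against 1.72, 1.71 and 2.78, so that the groups overlapped. The other 2 probes (A_66_P134866 and A_66_P103516) represent other transcripts and were below background on all 6 arrays.

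Peg3, a paternally expressed zinc finger gene tied to maternal behaviour and growth, and its maternally expressed neighbour Zim1 gave no signal that could be compared. All 3 Peg3 probes and both Zim1 probes were below background on all 6 arrays. The Peg3 probes ranged from 1.70 to 2.96 and the Zim1 probes from 1.69 to 1.88.

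**Figure D2:**
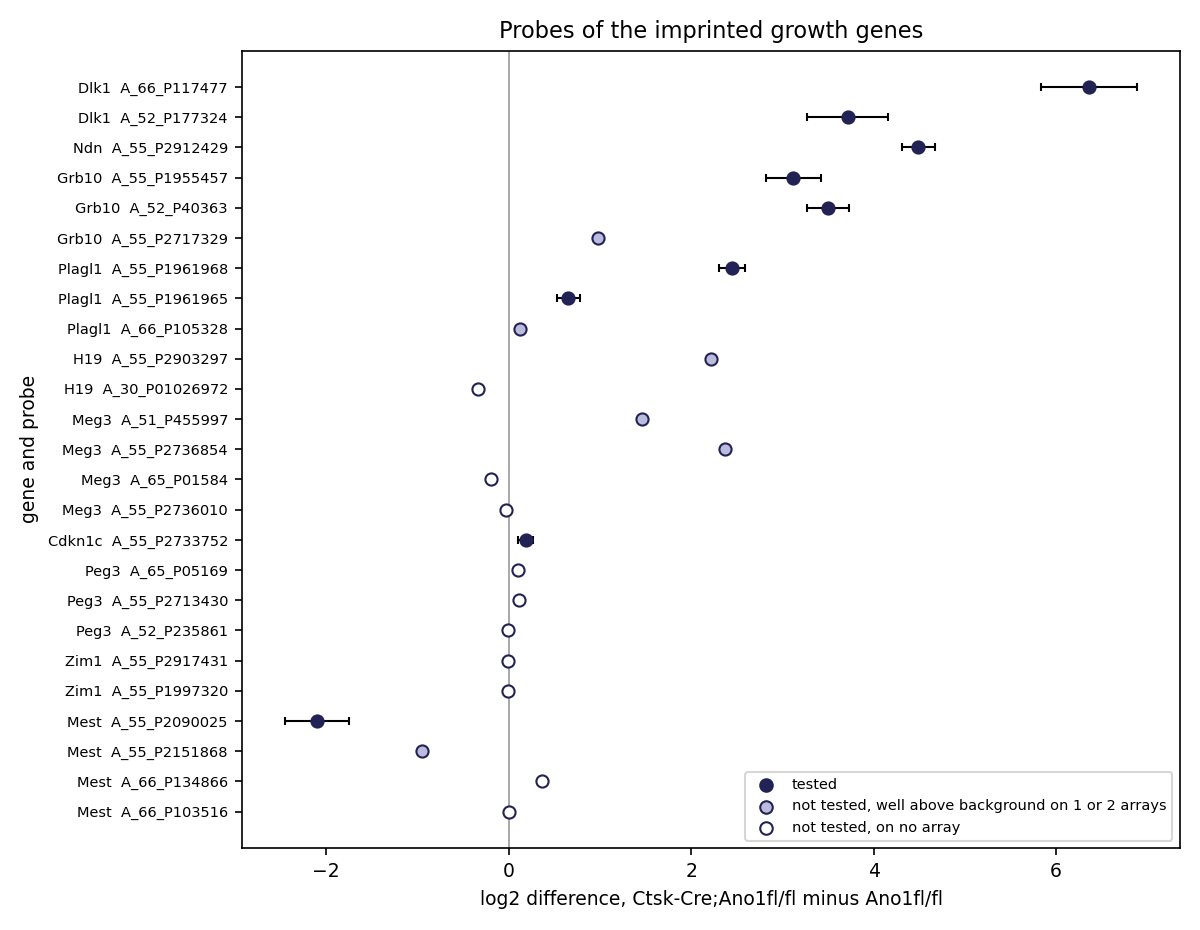
Log2 difference between the group means (Ctsk-Cre;Ano1fl/fl minus Ano1fl/fl, horizontal axis) for the probes of the imprinted growth genes (vertical axis), with 1 probe not shown. Dark points are the 9 probes that were tested, with bars for the SE; pale points were well above background on 1 or 2 arrays, and open points on none. Values of probes below background in a group are measured differences and no bounds, so their order by size is not given; probes of Plagl1, H19, Meg3 and Mest differ within a gene.

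Over all 26 probes, 9 were tested, of which 7 were higher, 1 was lower and 1, that of Cdkn1c, did not pass. Among all probes tested, 21.8% were higher and 30.6% lower. The tested probes of Dlk1, Ndn, Grb10 and Mest entered the test only through the arrays on which they were high, so these counts support no statement about the group. The sizes of the members' differences moved with the background setting, and their directions did not. With the normexp correction, run with an offset of 50 added to the signals, the log2 differences were 3.09 for Dlk1, 1.45 for Ndn, 1.38 for Grb10, 1.65 for Plagl1 and -0.95 for Mest, all still at an adjusted p under 0.05, so the fall of Mest was then below 2-fold. The bounds given as at least N-fold therefore hold on the scale of the processed signal alone. Where a gene was taken as the average over its probes, Mest was not tested and the log2 difference of Plagl1 was 1.07.

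Imprinted genes lie in clusters under shared control, so the neighbours of the members are given next. A list of 55 other imprinted genes held 54 with a probe, of which 35 were tested: 15 were higher, 8 were lower and 12 did not pass. By measured difference, 9 were higher and 4 lower by over 2-fold, where 9.88% and 7.19% of all genes tested were. Those higher include Dio3, Snrpn and Cobl, which were below background on every Ano1fl/fl array. Their bounds are under 2-fold, at least 1.79-fold, 1.89-fold and 1.54-fold. The median log2 difference was 0.13. The shares, 42.9% higher and 22.9% lower, stand beside 23.4% and 29% of all genes tested. They support no statement about the list as a group. Dio3, Snrpn, Cobl, Ppp1r9a and Rasgrf1 entered the test only through the Ctsk-Cre;Ano1fl/fl arrays, on which they were high. Ddc entered only through the Ano1fl/fl arrays, on which it was high. With all 6 arrays required to be well above background, 10 were higher and 7 lower.

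In the cluster of Dlk1 and Meg3, Dio3, which encodes the enzyme that inactivates thyroid hormone, gave 2.58, 2.32 and 2.48 on the Ano1fl/fl arrays against 5.55, 4.29 and 4.596 on the Ctsk-Cre;Ano1fl/fl arrays. It was at least 1.79-fold higher (adjusted p = 1.54e-03), and was not well above background on any Ano1fl/fl array. The noncoding Rian and the retrotransposon-derived Rtl1 were below background on all 6 arrays. The noncoding Mirg was well above background on 1 Ano1fl/fl array and 2 Ctsk-Cre;Ano1fl/fl arrays, and its groups overlapped, at 4.48, 3.58 and 3.79 against 4.58, 4.28 and 3.67. Dlk1 and Dio3 were the genes of this cluster that were tested, both only through the Ctsk-Cre;Ano1fl/fl arrays, so their direction is no pattern of the cluster.

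In the cluster of H19, the paternally expressed growth factor gene Igf2 was at the floor of the measurement, at 1.71, 1.71 and 1.70 against 1.71, 2.07 and 1.69. Igf2r, whose product clears IGF2 and carries lysosomal enzymes, lies in another cluster and did not pass (0.17 ± 0.08 SE, adjusted p = 0.121). The antisense noncoding RNA Airn, which silences the paternal copy of Igf2r, fell by 1.33 on the log2 scale (adjusted p = 6.00e-03). With the mean of its probes the difference was -0.22 and did not pass (adjusted p = 0.357).

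The cluster of Cdkn1c is controlled by the noncoding Kcnq1ot1. All of its 4 tested probes were lower, and the brightest fell by 0.86 on the log2 scale with an SE of 0.09 (adjusted p = 6.30e-04). Phlda2, a restrainer of placental growth from the same cluster, was below background on all 6 arrays. Ascl2 is a transcription factor of the same cluster that is needed in the placenta. By its brightest probe it had the largest rise among the genes of the list that were well above background on all 6 arrays. It gave 4.14, 5.30 and 5.00 on the Ano1fl/fl arrays against 9.84, 10.46 and 10.57 on the Ctsk-Cre;Ano1fl/fl arrays, a log2 difference of 5.47 ± 0.34 (SE), 44.4-fold (adjusted p = 8.38e-05). With the mean of its 2 probes the log2 difference was 2.17. For its brightest probe it was 3.82 with normexp and 4.39 with the series matrix. Other genes of that cluster, named after their values were seen, had smaller differences. Cd81, Nap1l4 and Osbpl5 rose by 0.79, 0.50 and 0.36 on the log2 scale, Tssc4 fell by 0.33, and Kcnq1, Slc22a18 and Tnfrsf23 did not pass.

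Next to Ndn, Snrpn, which encodes a protein of the splicing machinery, gave 2.04, 1.82 and 2.11 against 5.32, 4.82 and 4.52. It was at least 1.89-fold higher (adjusted p = 1.47e-04) and below background on every Ano1fl/fl array, as Ndn was. Magel2, a relative of Ndn, was below background on all 6 arrays. Of the other genes of that cluster, named after their values were seen, the lipid flippase gene Atp10a fell by 0.84 on the log2 scale (adjusted p = 0.0100). Peg12 and the ubiquitin ligase gene Ube3a did not pass, with log2 differences of -0.04 and -0.19, and the other tested probes of Ube3a lay at -0.83 and -0.63. Next to Grb10, the actin nucleator gene Cobl gave 1.80, 1.72 and 1.71 against 4.18, 4.87 and 4.73, at least 1.54-fold higher (adjusted p = 9.05e-05). On its other side, Ddc, the aromatic amino acid decarboxylase, fell by 1.05 on the log2 scale (adjusted p = 4.33e-03).

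Next to Mest, Copg2, a gene for a vesicle coat protein, gave 11.16, 10.60 and 10.13 against 9.54, 9.63 and 9.92. It fell by 0.93 on the log2 scale (adjusted p = 0.0264). That call was lost without the second Ano1fl/fl array (adjusted p = 0.0684), without the first Ctsk-Cre;Ano1fl/fl array (0.0791) and without the second (0.0713). Near Peg3, Usp29 was well above background on 1 array of each group and its groups overlapped.

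Among the remaining imprinted genes the rule for naming took Ppp1r9a, which encodes an actin-binding scaffold and rose by 2.23 on the log2 scale, and 2 genes that fell. Those were Asb4, an ankyrin repeat protein of the placenta (fell by 1.997), and Gatm, an enzyme of creatine synthesis (fell by 1.27). Their adjusted p-values were 3.21e-04, 8.36e-04 and 2.24e-04. Sgce, Impact, Mcts2 and Sfmbt2, named after their values were seen, were well above background on all 6 arrays. They rose by 1.59, 1.25, 1.13 and 1.08 (adjusted p = 2.74e-04, 1.81e-04, 1.50e-04 and 6.82e-03, limma). The other tested probe of Sfmbt2 differed by -0.16 without passing. The 4 genes of the list that were lower by over 2-fold are all named. For the dim genes among the neighbours the log2 differences were smaller with normexp and with the series matrix, at 0.40 and 0.75 for Dio3, 0.49 and 0.78 for Snrpn, and 0.42 and 0.84 for Cobl. These are under the bounds given, except that of Cobl with the series matrix. They were 0.85 and 1.26 for Ppp1r9a and -0.33 and -0.48 for Ddc, and all 5 genes still passed the test.

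**Figure D3:**
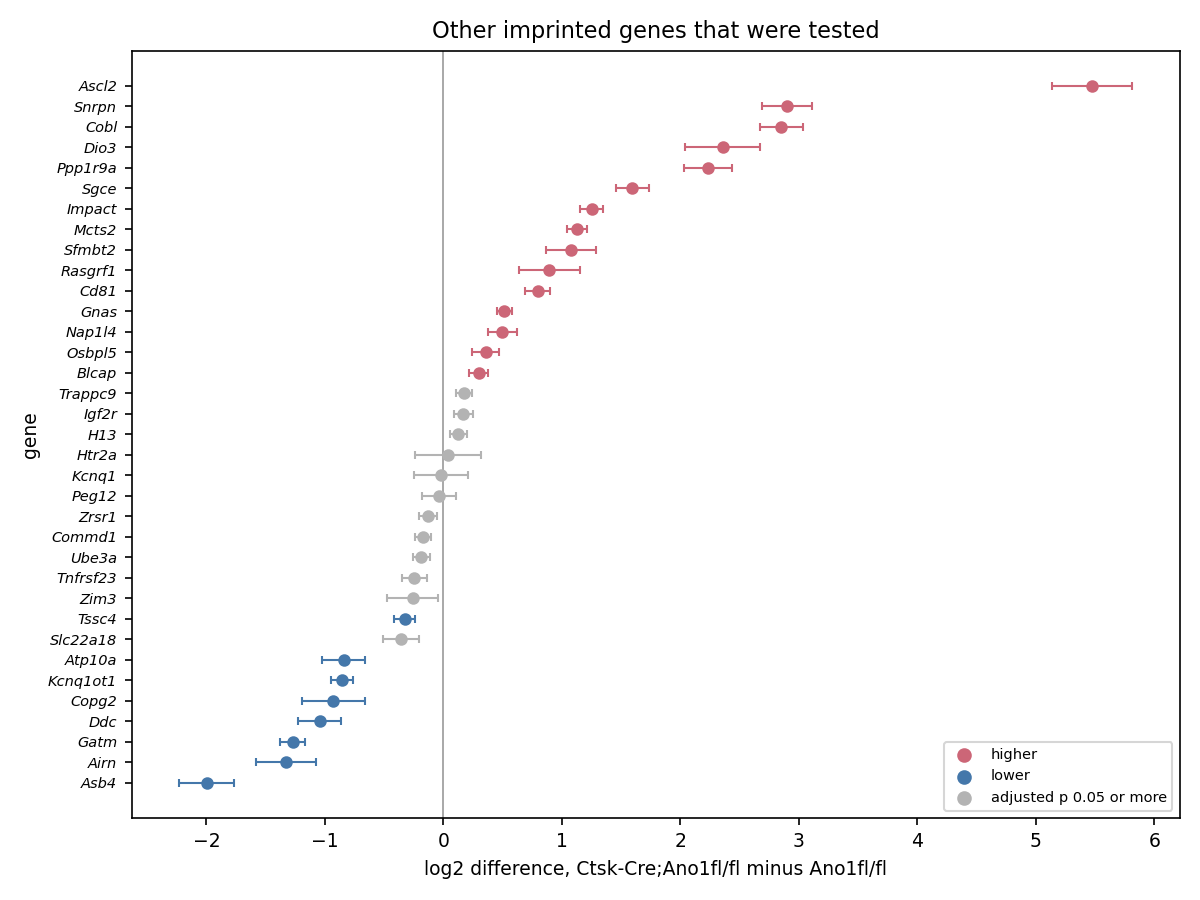
Log2 difference (Ctsk-Cre;Ano1fl/fl minus Ano1fl/fl, horizontal axis) with SE for the 35 other imprinted genes that were tested (vertical axis), laid out by measured difference. Red genes were higher (15) and blue genes lower (8) at an adjusted p under 0.05, and grey genes did not pass (12). Dio3, Snrpn and Cobl were below background on every Ano1fl/fl array, so their place is no ranking. Ascl2 at 5.47 lies far to the right of the other points.

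Proteins that set, read or keep imprints were listed next, 22 genes of which 20 were tested. None was higher and 9 were lower (adjusted p under 0.05, limma), 0% and 45% beside 23.4% and 29% of all genes tested, with a median log2 difference of -0.23. Over the alternative settings the count lower ranged from 6 to 11, with 6 when the replicate number was part of the fit. The count of genes higher was also 0 at an unadjusted p under 0.05 and with the methods' t-test. Dnmt1, the maintenance DNA methyltransferase, fell by 0.88 on the log2 scale (adjusted p = 3.70e-04). Uhrf1, which brings DNMT1 to newly copied DNA and is named after its value was seen, fell by 1.13 (adjusted p = 8.29e-04). Dppa3, which protects methylation in the early embryo, gave 9.31, 9.38 and 9.40 against 7.06, 6.78 and 7.06 and fell by 2.40 (adjusted p = 2.21e-05). These last 2 genes were the ones of the list that were lower by over 2-fold.

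Trim28, the corepressor that ZFP57 recruits to imprints, fell by 0.38 on the log2 scale (adjusted p = 0.0210), but its other tested probe differed by 0.19 in the opposite direction without passing. Its call was lost without the first Ano1fl/fl array (adjusted p = 0.0599) and without the second (0.0705). Ctcf, the insulator protein that binds the imprinted region between H19 and Igf2, had a log2 difference of -0.22 ± 0.09 (SE) and did not pass (adjusted p = 0.0798), whereas without the third Ctsk-Cre;Ano1fl/fl array its adjusted p was 0.0478. Zfp57 itself was not tested, being well above background on 1 array.

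The last list held 28 genes that the members act with, the IGF and insulin pathway, the Notch receptors, and the cyclins, kinases and inhibitors of the cell cycle. Of 27 tested, 5 were higher, 15 were lower and 7 did not pass, with a median log2 difference of -0.45. The shares, 18.5% higher and 55.6% lower, stand beside 23.4% and 29% of all genes tested. All 5 that were higher rose by over 2-fold, as 5 of the 15 fell by over 2-fold.

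In the insulin and IGF pathway, on which GRB10 acts, Irs1, which encodes an insulin receptor substrate, gave 2.59, 2.36 and 2.88 against 7.23, 6.95 and 6.65. It was at least 7.87-fold higher (adjusted p = 2.63e-05), with log2 differences of 1.45 with normexp and 2.01 with the series matrix, both under that bound. Igf2bp2, an RNA-binding protein of the Igf2 transcript, rose by 2.16 on the log2 scale (adjusted p = 1.01e-04), and Irs2, named after its value was seen, rose by 1.11. The ligand gene Igf1, also named after its value was seen, fell by 0.47 (adjusted p = 0.0130). The receptors themselves did not pass, with log2 differences of 0.03 ± 0.12 (SE) for Igf1r and -0.03 ± 0.15 for Insr. For Igf1r the 3 other tested probes lay between -0.82 and -0.17, and 1 of them was called lower, so its probes disagreed. With the mean of its probes Igf1r was called lower, with a log2 difference of -0.34 (adjusted p = 0.0123).

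In the cell cycle, Ccnd2, cyclin D2, gave 11.08, 11.93 and 11.82 against 13.66, 13.31 and 13.87 and rose by 2.01 on the log2 scale (adjusted p = 1.31e-03). Ccnd1, cyclin D1, gave 11.41, 12.50 and 12.02 against 9.61, 9.55 and 9.41 and fell by 2.45 (adjusted p = 6.34e-04). Ccna2, the S phase cyclin, fell by 2.13 (adjusted p = 2.57e-04). The others that moved by over 2-fold were Notch3, which rose by 1.21, and Cdk1, Notch4 and Notch1, which fell by 1.29, 1.14 and 1.05; they are named after their values were seen, and the other tested probe of Notch1 differed by 0.85 in the opposite direction without passing. Ccnd3, cyclin D3, named after its value was seen, fell by 0.45 (adjusted p = 2.20e-03).

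**Figure D4:**
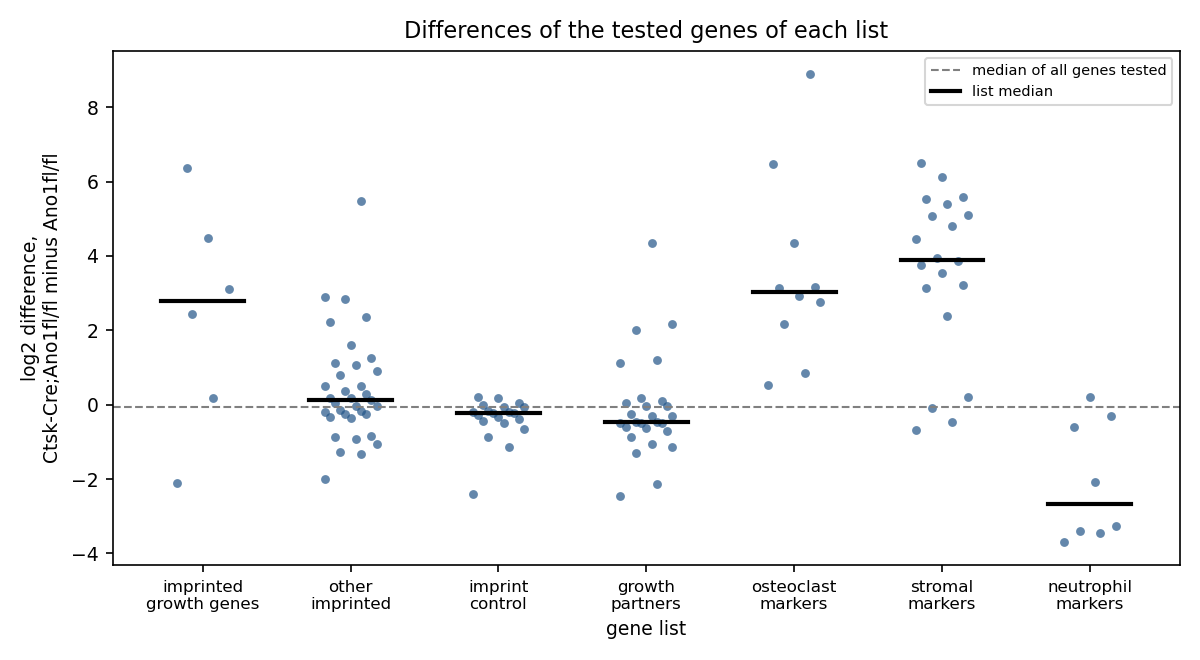
Log2 difference (Ctsk-Cre;Ano1fl/fl minus Ano1fl/fl, vertical axis) of each tested gene, 1 point a gene, in the imprinted lists, the partner lists and 3 marker lists (horizontal axis), with the list median as a black bar. The dashed line is the median of all genes tested, -0.06; the medians are 2.78 for the imprinted growth genes, 0.13 for the other imprinted genes, 3.90 for the stromal markers and -2.66 for the neutrophil markers.

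Markers of other cells moved with the same groups. Of 21 stromal markers, 20 were tested, 16 were higher, all by over 2-fold, and 2 were lower. Among these matrix genes Postn and Col1a1 rose by 6.50 and 6.12 on the log2 scale while Lum was at least 22.7-fold higher. Postn was well above background on 1 Ano1fl/fl array, so the size of its rise rests in part on signals below background. The stromal markers that fell were Lepr, by 0.69 (adjusted p = 0.0117), and Runx2, by 0.46 (adjusted p = 0.0494), and those that did not pass were Thy1 at 0.21 and Sp7 at -0.08. These 4 are named after their values were seen. The summed signal of the 21 genes, on the linear scale, was 4863 to 5905 on the Ano1fl/fl arrays and 80758 to 131151 on the Ctsk-Cre;Ano1fl/fl arrays, and 0 of the 21 were below background on all arrays. All 10 osteoclast markers were higher, with a median log2 difference of 3.02 and summed signals of 146416 to 158913 against 498923 to 562107. For Nfatc1 the brightest probe was higher by 0.53 on the log2 scale and its other tested probe was called lower, at -0.53. All of them but Calcr, which 2 of the 3 Ano1fl/fl arrays read well above background, were well above background on all 6 arrays, Ctsk and Acp5 among them. Of 8 neutrophil markers 7 were lower (summed signals 290431 to 304147 against 182531 to 232694), and of 8 macrophage markers 1 was higher and 3 were lower (376192 to 392643 against 383438 to 428739).

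The other marker lists held fewer tested genes. Of 8 adipocyte markers, 5 were tested, 1 was higher and 2 were lower, with summed signals of 79817 to 94885 against 81476 to 98281, and the defining Adipoq, Plin1 and Cfd were below background on all 6 arrays. Of 8 skeletal muscle markers, 1 was tested and was higher, with Pax7, Myf5, Myog, Des and Ckm below background on all arrays and summed signals of 40.7 to 53.1 against 98.8 to 155. Of 7 endothelial markers, 6 were tested, 1 was higher and 2 were lower (6217 to 7825 against 3015 to 3618), and Tek was below background throughout. Of 7 stem cell markers, 5 were tested, 1 was higher and 2 were lower (10180 to 15265 against 15271 to 21564), and Mecom was below background throughout. Procr, the marker that was higher, carried most of that sum while Cd34 and Meis1 fell, and Lpl, which did not pass, carried most of the adipocyte sum. The part of these cells in the values of Dlk1, Ndn, Grb10, Plagl1 and Mest was not tested. By the methods, the cells that stayed in suspension after the first day of culture were the ones taken for osteoclast formation. Which cell types were carried over at that step was not tested. In RNA from a whole culture fewer cells of a type and less RNA per cell cannot be told apart.

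As a description of likeness, each tested member was set against the 13760 tested genes whose symbol is no probe or clone identifier, by Pearson's r over the 6 arrays, on the log2 scale. The most alike gene was C2, a complement protein, for Dlk1 (r = 0.999), Hspb1, a small heat shock protein, for Ndn (r = 0.999), and Asns, asparagine synthetase, for Plagl1 (r = 1.00). It was Ccr3, a chemokine receptor, for Grb10 (r = 0.999), Zkscan14 for Mest (r = 0.999) and Braf for Cdkn1c (r = 0.984). With the arrays in 2 groups that stand apart, such values are common, and for Dlk1 and Ndn the 3 Ano1fl/fl values are below background, so the gene named rests in part on values with no order. In all, 1880 genes had r over 0.95 with Dlk1, 2284 with Ndn and 22 with Cdkn1c.

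Sequences around the members came from RefSeq tables of the build GRCm38.p6, which differs from the mm9 positions of the probes, so no position was carried from one to the other. Windows of 250 bases upstream of a transcript start were given for 8 of the 10 genes. The hexamer TGCCGC, which ZFP57 reads when methylated, was searched on both strands (TGCCGC or GCGGCA). It was in 5 of the 12 windows of these genes, those of Zim1, Plagl1 and Meg3 and 2 of Mest that overlap nearly wholly, beside 8.68% of all 32851 windows. The 4 genes that rose differed in this: Plagl1 held it and Dlk1, Ndn and Grb10 did not, in these windows. The number of CpG dinucleotides also ranged widely, from 5 for Ndn and 8 for Dlk1 to 19 for Plagl1 and 40 for 1 of the 2 Grb10 windows, beside a median of 6. The hexamer itself holds a CpG, and the member windows with it had 10 to 19. Its share was not set against windows of like CpG number. The windows of 2 members that rose and differ in CpG number are shown, with the hexamer in capitals where present, Ndn at chr7:62348027-62348276 and Plagl1 at chr10:13090582-13090831, both on the + strand:
Ndn: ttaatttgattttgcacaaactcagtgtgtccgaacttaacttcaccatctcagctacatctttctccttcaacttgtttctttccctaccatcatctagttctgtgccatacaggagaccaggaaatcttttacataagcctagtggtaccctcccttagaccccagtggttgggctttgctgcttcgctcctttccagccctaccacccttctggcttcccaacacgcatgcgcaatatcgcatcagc
Plagl1: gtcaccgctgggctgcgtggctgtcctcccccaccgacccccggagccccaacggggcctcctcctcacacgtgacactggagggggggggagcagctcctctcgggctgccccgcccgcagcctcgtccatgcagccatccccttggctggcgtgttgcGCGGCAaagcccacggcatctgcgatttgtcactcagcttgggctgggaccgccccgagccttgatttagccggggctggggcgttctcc

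By position in that build, 7 mature miRNAs lie inside 3 of the members, and their 7 seeds (bases 2 to 8) are all different. The arms carried by H19 and by Mest are shown, with the seed in capitals, because these members are their hosts; the arrays read the host RNA and not the miRNA:
miR-675-5p (H19): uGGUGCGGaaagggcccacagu
miR-675-3p (H19): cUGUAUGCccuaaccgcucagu
miR-335-5p (Mest): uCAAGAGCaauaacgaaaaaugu
miR-335-3p (Mest): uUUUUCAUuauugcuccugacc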

How the data were processed

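RNA from 6 osteoclast cultures was labelled with Cy3 and hybridised to Agilent one-colour arrays. The deposited values are intensities on a linear scale, which the authors read with Agilent Feature Extraction 10.7.1.1 per the submitters' processing notes in the labels: spot mean and median, local background, and a processed signal with background removed. The deposited series matrix equalled the spot median (largest difference 0) and served as an alternative. Depth has no meaning here; the number of arrays limits the precision.

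Control and outlier spots were left out, and log2 processed signals were quantile normalised, as the methods name, in R 4.3.3 with limma 3.58.1. Spots were averaged per probe, and 14 probes with a missing value were dropped. A probe was well above background where at least 0.5 of its spots were. A gene was its brightest probe and was tested where well above background on all 3 arrays of a group. Groups, taken from the labels, were compared with lmFit and eBayes, with Benjamini-Hochberg adjustment over all genes, or over all probes in a second fit. For a gene below background on 1 group, the fold is a bound: the bright mean against, per dim array, the higher of its own signal and the lowest signal well above background. The script was tested on simulated data.

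Members and lists were chosen with earlier results of these data known. The genes named were all members, Ano1, neighbours of members, and, by name, Ctcf, Zfp57, Trim28, Dnmt1, Igf1r and Insr. Others were named by measured difference, past an adjusted p of 0.05, 2-fold and non-overlapping groups. They were the 5 largest rises and up to 5 largest falls of the other imprinted genes. To these came the 3 largest of each over the imprint control and growth partner genes, and up to 3 genes of a marker list. The methods give 3 mice a group, and the labels number the samples 1 to 3 within each. Of the 26 member probes, 18 had an accession in the RefSeq table of GRCm38.p6, all 18 with the same symbol. The sequence and values of 1 member probe, which was not tested, are not reported here. Exon, intron and UTR annotation of the mm9 positions was not used here.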

Additional observations from a re-analysis of the deposited data

How the results depend on the processing

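Every alternative changed 1 choice, except that normexp also added an offset and started from the mean signal, and the series matrix took the spot median without background removal. The 4 rises and the fall among the imprinted growth genes kept their direction and their side of the threshold wherever those genes were tested, over 75th percentile scaling, normexp, the series matrix, no filter, a fit of single probes, the average over probes, trended and robust moderation, the methods' t-test, the replicate block and each array left out. Asking for a signal well above background on all 6 arrays left 1 gene higher (1 by over 2-fold) and 0 lower (0 by over 2-fold), and 2 probes higher and 0 lower, because fewer genes were tested. With the mean of all probes 0 were lower (0 by over 2-fold), since Mest was then not tested, and with normexp 0 were lower by over 2-fold. The median log2 difference was 1.41 with normexp, 1.91 with the series matrix, 1.84 with no filter and 1.31 with all 6 arrays; for normexp and the series matrix the cause was not tested. With no filter the 4 untested members entered, and Meg3 (adjusted p = 0.0146) passed while H19 (0.0592), Peg3 (0.929) and Zim1 (0.952) did not. Leaving out each array gave 4 to 5 members higher, 1 lower, and medians of 2.64 to 2.98. The lists gave 11 to 14 (other imprinted) and 5 (growth partners) higher, with 6 to 9, 13 to 16 and, for imprint control, 6 to 9 lower.

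Replicate numbers are shared by the groups but no source says that they pair the samples. Deviations of same-numbered arrays correlated at 0.00, -0.06 and -0.08, so the numbers were not taken as pairs. With the replicate block 4 members were higher and 1 lower, at a median of 2.78, and the adjusted p of Copg2 was 0.0651 and of Trim28 0.0531. Copg2 also did not pass with the methods' t-test (0.0807) or with no filter (0.0761), nor Airn (0.357) and Trim28 (0.502) with the mean of probes, where Igf1r turned from 0.03 to -0.34 and passed (0.0123). Ctcf passed with 75th percentile scaling (0.0299), normexp (0.0392), the series matrix (0.0432) and trended moderation (0.0409). The 75th percentile scaling put the median of all genes at -0.12. Signal over background limits Meg3, H19, Peg3 and Zim1.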
